A study of Homo sapiens with 6 samples.

Results

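The genes described here are those of HLA class I antigen presentation and peptide loading, 9 in all, chosen by name from the 58735 genes of the deposited table: the heavy chains HLA-B, HLA-C, HLA-E and HLA-F, the light chain B2M, the peptide transporter subunits TAP1 and TAP2, the loading factor TAPBP and the transactivator NLRC5. They were measured by RNA sequencing in RKO cells, an established line from a human colorectal carcinoma. Control cells (Vector) and cells overexpressing the long non-coding RNA LOC101927668 (LOC_OE) gave 3 libraries each. Per the study's methods, stable lines were made by lentiviral transduction of the full-length transcript and puromycin selection, and whether a line was 1 clone is not stated. The labels give neither a gene deletion nor a cytokine treatment, and both groups grew in DMEM with fetal bovine serum. The comparison asks which genes differ in level when LOC101927668 is overexpressed.

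Class I molecules are complexes of a heavy chain, B2M and a short peptide, and they show fragments of a cell's own proteins at its surface. Peptides cut by the proteasome are carried into the endoplasmic reticulum by the TAP1-TAP2 heterodimer, where tapasin, encoded by TAPBP, bridges the transporter and the empty heavy chain. HLA-B and HLA-C belong to the classical heavy chains read by CD8+ T cells, while HLA-E and HLA-F are non-classical heavy chains bound by receptors of natural killer cells. NLRC5 joins RFX, CREB family and NF-Y proteins on the SXY module of class I promoters, and interferon and NF-kB act on many of the same promoters.

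The promoters of the heavy chains HLA-B, HLA-C and HLA-F and of both transporter subunits are shown because these genes differed in their change. Each window runs from 250 bases before to 50 bases after a RefSeq start on GRCh38.p14, is written 5′ to 3′ on the strand of the gene, and has in capitals the matches to an IRF core (AANNGAAA), a kB-like motif (GGGNNTTCC), a Y box (CCAAT), a CRE core (TGACG) and the NF-kB consensus, all searched on both strands. RefSeq windows were matched for 7 of the 9 genes, and none was matched for HLA-E or NLRC5. The windows are chr6:31357130-31357429 for HLA-B, chr6:31272043-31272342 for HLA-C and chr6:32853655-32853954 for TAP1, all on the minus strand, chr6:32838690-32838989 on the minus strand for TAP2, and chr6:29723184-29723483 on the plus strand for HLA-F.
HLA-B: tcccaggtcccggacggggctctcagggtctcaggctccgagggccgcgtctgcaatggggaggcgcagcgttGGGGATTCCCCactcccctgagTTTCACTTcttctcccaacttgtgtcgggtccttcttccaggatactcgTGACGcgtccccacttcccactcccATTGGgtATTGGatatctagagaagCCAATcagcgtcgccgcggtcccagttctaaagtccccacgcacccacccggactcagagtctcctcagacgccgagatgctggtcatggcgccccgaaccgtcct
HLA-C: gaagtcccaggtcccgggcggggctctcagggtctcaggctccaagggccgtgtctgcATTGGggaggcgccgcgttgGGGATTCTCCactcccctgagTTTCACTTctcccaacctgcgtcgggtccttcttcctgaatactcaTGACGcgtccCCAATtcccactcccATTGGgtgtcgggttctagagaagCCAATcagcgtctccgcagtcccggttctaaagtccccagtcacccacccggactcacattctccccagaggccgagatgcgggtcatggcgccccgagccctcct
HLA-F: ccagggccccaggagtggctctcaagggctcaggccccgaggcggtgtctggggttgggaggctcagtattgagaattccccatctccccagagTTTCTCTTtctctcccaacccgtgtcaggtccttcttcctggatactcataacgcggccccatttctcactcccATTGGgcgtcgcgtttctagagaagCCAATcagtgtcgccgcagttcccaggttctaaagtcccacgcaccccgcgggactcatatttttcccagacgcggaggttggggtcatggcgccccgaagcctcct
TAP1: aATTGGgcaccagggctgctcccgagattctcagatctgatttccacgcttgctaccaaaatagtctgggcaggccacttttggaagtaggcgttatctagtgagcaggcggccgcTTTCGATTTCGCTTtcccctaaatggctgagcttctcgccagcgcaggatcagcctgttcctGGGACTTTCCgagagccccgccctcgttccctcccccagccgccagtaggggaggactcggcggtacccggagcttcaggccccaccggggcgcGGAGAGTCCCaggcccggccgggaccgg
TAP2: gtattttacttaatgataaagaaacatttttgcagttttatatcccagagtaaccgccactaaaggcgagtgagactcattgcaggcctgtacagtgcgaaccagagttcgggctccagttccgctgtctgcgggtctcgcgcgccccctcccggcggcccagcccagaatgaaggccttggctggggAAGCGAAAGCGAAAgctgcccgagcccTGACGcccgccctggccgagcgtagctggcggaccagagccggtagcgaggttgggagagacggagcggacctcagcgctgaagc

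The HLA-B and HLA-C windows were alike in 269 of 296 aligned bases (90.9%), whereas the HLA-F window was alike in 80.8% of bases to that of HLA-B and in 82.3% to that of HLA-C. Each of these windows held 1 IRF core, which 22.8% of 35116 promoter windows of the same length hold. The Y box, present in 34.6% of windows, was found 3 times in HLA-B, 4 times in HLA-C and 2 times in HLA-F. The kB-like motif, present in 6.58% of windows, was matched 1 time in HLA-B and in neither of the other heavy chain windows. The NF-kB consensus, present in 11.3% of windows, was matched 2 times in HLA-B, overlapping the kB-like match, 1 time in HLA-C and not in HLA-F. In the TAP1 window there were 2 overlapping IRF cores, 1 Y box and 2 matches to the NF-kB consensus, and a further RefSeq window of TAP1 held no match. The TAP2 window also held 2 overlapping IRF cores, with 1 CRE core (24.6% of windows) and no match to either kB motif. In the B2M window there were 2 overlapping IRF cores and 1 match to each other motif, and the TAPBP window held 2 overlapping IRF cores and 1 match to each kB motif. These matches describe letters and not binding.

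The libraries held 15008842 to 18410231 reads on genes. Reads of LOC101927668 numbered 1, 1 and 0 in Vector against 231, 270 and 276 in LOC_OE. Of 16061 genes tested with limma, 1639 (10.2%) were called, meaning a Benjamini-Hochberg adjusted p-value under 0.05 with a fold change of at least 1.5, and 743 (4.63%) of them were higher and 896 (5.58%) lower in LOC_OE. With every library rescaled to the same sum of FPKM, the median log2 fold change over all genes went from 0.019 to -0.18 and the calls became 261 higher and 1786 lower. LOC_OE replicate 1 stood apart, with Pearson correlations across genes of 0.967 and 0.962 to the other LOC_OE libraries, which had 0.982 between them, so values without it are given for members and lists whose results it moved. Markers of leukocytes, fibroblasts and endothelium summed to at most 0.349, 0.16 and 0.0801 FPKM in any library, and 3 of 8, 3 of 5 and 1 of 4 of them were at 0 in all 6 libraries. Among the epithelial and intestinal markers EPCAM, KRT8, KRT18 and CDX2 passed the filter, 4 of 8, while CDH1 was listed at 0. In bulk RNA, fewer cells expressing a gene and less RNA per cell cannot be told apart.

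All 9 members passed the filter on low FPKM, with at least 174 reads in every library. HLA-B, HLA-F and TAP1 were lower in LOC_OE, by 1.98, 1.78 and 1.67 times in the means, and were the 3 of 9 members called (33.3%, against 10.2% of all genes), with none called higher. TAP2 rose by the adjusted p-value while staying under the fold change of 1.5, which made 4 of 9 members (44.4%) past an adjusted p-value of 0.05, against 20.4% of all genes. HLA-C, HLA-E, B2M, TAPBP and NLRC5 did not pass. The values of 6 members did not overlap between groups, 4 lower and 2 higher in LOC_OE, where 45.3% of all genes had groups that did not overlap. The median log2 fold change over the members was -0.11, beside 0.019 over all genes. In the plot of levels by library, the genes run from HLA-C at the top to NLRC5 at the bottom.

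**Figure D1:**
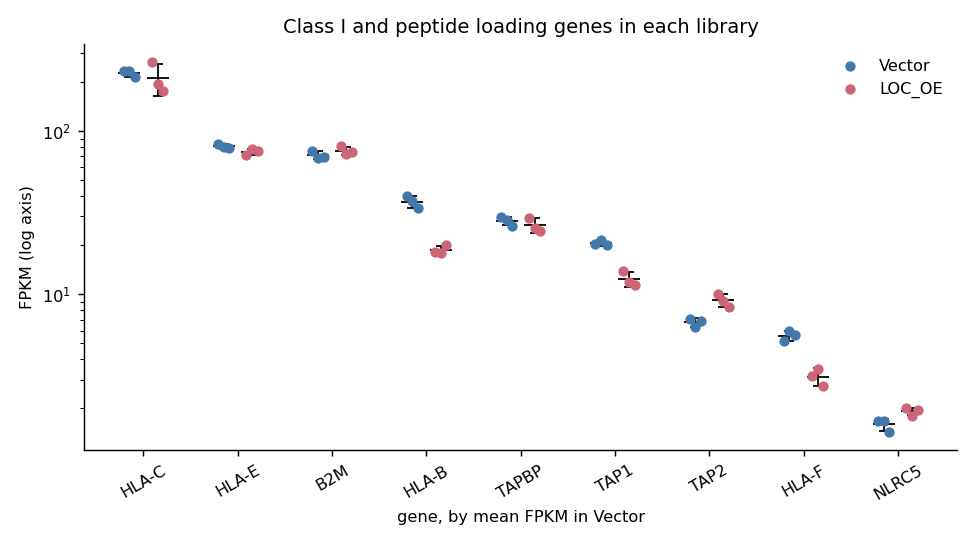
FPKM of the 9 genes (log axis) in each library, with Vector in blue and LOC_OE in red, 3 libraries each; points are libraries and bars the mean and SD. The groups stand apart downwards in HLA-B, TAP1, HLA-F and, by a small margin, HLA-E, and upwards in TAP2 and NLRC5, of which HLA-E and NLRC5 did not pass the test.

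Per length, HLA-C had the highest level of the members in Vector, at 226 ± 11.9 FPKM (SD, n = 3), followed by HLA-E at 80.7 ± 2.76, B2M at 71.1 ± 3.88, HLA-B at 37.0 ± 3.20, TAPBP at 28.2 ± 1.78, TAP1 at 20.6 ± 0.817, TAP2 at 6.75 ± 0.408, HLA-F at 5.58 ± 0.393 and NLRC5 at 1.6 ± 0.136. No neighbours in this order had overlapping values. In LOC_OE the order was HLA-C, B2M, HLA-E, TAPBP, HLA-B, TAP1, TAP2, HLA-F and NLRC5, and the values of B2M and HLA-E overlapped. HLA-B and TAPBP had thus changed places. How closely the HLA alleles of RKO match the reference, which bears on levels between HLA genes, was not tested.

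HLA-B (ENSG00000234745, chr6:31269491-31357188, minus strand, GRCh38) encodes a classical heavy chain and showed the largest change of the members. It was at 40.1, 37.2 and 33.7 FPKM in the Vector libraries and at 18.2, 18.0 and 20.0 FPKM in the LOC_OE libraries. The LOC_OE values lay close together, and the highest was far below the lowest Vector value. On the log2(FPKM + 1) scale it fell by 0.95 (SE 0.0944, 95% interval -1.17 to -0.72, limma adjusted p = 0.00459). The call held without each library in turn, with log2 fold changes between -1.01 and -0.89. Its gene model shares 35 exon bases with HLA-C on the same strand, 1.15% of its exon length. AL671883.2, on the other strand and at 0 FPKM, covers 17.8% of the exon bases of HLA-B and holds 11.2% of its 150-base windows.

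HLA-C (chr6:31268749-31272130, minus strand), the classical heavy chain next to HLA-B, had 234, 232 and 213 FPKM in Vector and 263, 193 and 176 FPKM in LOC_OE. LOC_OE replicate 1 lay above every Vector library and the other LOC_OE libraries below them, so the groups overlapped. The log2 fold change was -0.12 (SE 0.161, 95% interval -0.51 to 0.27, limma adjusted p = 0.626), and without LOC_OE replicate 1 it was -0.29 (limma adjusted p = 0.0251). HLA-C also passed the adjusted p-value with the libraries rescaled to the same sum (-0.38), with quantile normalization (-0.49) and with limma array weights (-0.24).

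The unequal change of the neighbours was read within libraries from the ratio of HLA-B to HLA-C FPKM, which was 0.171, 0.160 and 0.159 in Vector and 0.0690, 0.0932 and 0.113 in LOC_OE. Every LOC_OE ratio was below every Vector ratio (exact permutation test, two-sided, p = 0.10, the lowest p possible with 3 against 3 libraries, 0.13 after adjustment over 8 ratios). This ratio and those below reuse the values of the separate fits, so their tests are no independent support.

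HLA-F (chr6:29722775-29738528, plus strand), a non-classical heavy chain, was the least abundant of the 4 heavy chains described here. Its FPKM were 5.18, 5.97 and 5.60 in Vector and 3.16, 3.5 and 2.73 in LOC_OE, and every LOC_OE value lay below every Vector value. The log2 fold change was -0.67 (SE 0.102, 95% interval -0.92 to -0.43, limma adjusted p = 0.0105). This call was lost without Vector replicate 2 (-0.63, limma adjusted p = 0.0639) and without Vector replicate 3 (-0.67, limma adjusted p = 0.0573). HLA-F shares 12.3% of its exon bases with the antisense gene HLA-F-AS1, which had a mean of 2.51 FPKM in Vector and 1.56 FPKM in LOC_OE. No source used here gives the strand of the reads, and reads from the overlap of the genes cannot be told apart.

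HLA-E (chr6:30489467-30494205, plus strand) presents leader peptides of other class I chains to the CD94-NKG2 receptors of natural killer cells. It was at 83.8, 79.9 and 78.4 FPKM in Vector and at 71.0, 77.2 and 75.5 FPKM in LOC_OE. The values did not overlap, yet the groups were close and the log2 fold change of -0.11 did not pass (SE 0.0798, 95% interval -0.30 to 0.079, limma adjusted p = 0.352). Without LOC_OE replicate 1 it was -0.08, and rescaling to the same sum gave -0.37 with a limma adjusted p of 0.0429. HLA-G was listed at 0 in every library.

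B2M (chr15:44711487-44718877, plus strand), the light chain of all these heavy chains, lies outside the HLA region and was the only member besides NLRC5 to do so. It had 75.6, 68.8 and 69.0 FPKM in Vector and 80.9, 72.6 and 74.2 FPKM in LOC_OE, so the groups overlapped. The log2 fold change of 0.093 did not pass (SE 0.0874, 95% interval -0.12 to 0.30, limma adjusted p = 0.485). Its sign turned, to -0.17 and -0.18, with the same sum of FPKM and with quantile normalization.

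The subunits of the peptide transporter moved apart. TAP1 (chr6:32845209-32853978, minus strand) was at 20.3, 21.6 and 20.0 FPKM in Vector and at 13.8, 11.9 and 11.4 FPKM in LOC_OE, with no overlap. It fell by 0.70 on the log2 scale (SE 0.0930, 95% interval -0.92 to -0.47, limma adjusted p = 0.00799). The call was lost without Vector replicate 2 (-0.67, limma adjusted p = 0.0566) and held in the other 5 fits that left out 1 library. TAP1 shares 9.49% of its exon bases with the antisense gene PSMB8-AS1, whose FPKM were at most 0.601.

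TAP2 (chr6:32821833-32838780, minus strand), the other subunit, had 7.09, 6.30 and 6.86 FPKM in Vector and 10.0, 9.14 and 8.37 FPKM in LOC_OE. Every LOC_OE value was above every Vector value. The log2 fold change was 0.39 (SE 0.0930, 95% interval 0.17 to 0.62, limma adjusted p = 0.0321), a fold change of 1.31. This p-value did not hold with no filter on low FPKM or with the same sum of FPKM (log2 fold change 0.16, limma adjusted p = 0.191), nor in 4 of the 6 fits that left out 1 library, among them that without Vector replicate 2 (limma adjusted p = 0.136). AL669918.1, listed at 0 FPKM, covers 32.3% of the exon bases of TAP2 on the same strand.

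The ratio of TAP1 to TAP2 FPKM was 2.87, 3.43 and 2.92 in Vector and 1.38, 1.31 and 1.37 in LOC_OE, a mean of 3.07 ± 0.308 against 1.35 ± 0.0376 (SD, n = 3). The lowest Vector ratio exceeded the highest LOC_OE ratio (exact permutation test, two-sided, p = 0.10, the lowest possible, 0.13 adjusted over 8 ratios). Since both values of a ratio come from the same library, rescaling a library leaves it as it is. In the plot of ratios within libraries, TAP1 over TAP2 separates the groups while TAP1 over PSMB9 does not.

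**Figure D2:**
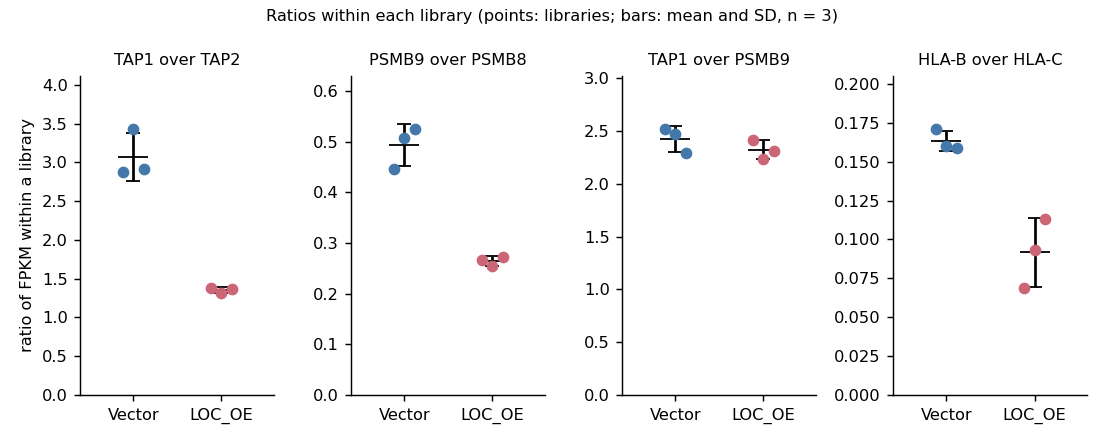
Ratios of FPKM within each library for TAP1 over TAP2, PSMB9 over PSMB8, TAP1 over PSMB9 and HLA-B over HLA-C, on linear axes from 0; points are libraries, bars the mean and SD of 3 Vector or 3 LOC_OE libraries. TAP1 over TAP2 was 2.87 or more in Vector and 1.38 or less in LOC_OE, whereas TAP1 over PSMB9 overlapped between the groups.

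PSMB9, an immunoproteasome subunit that shapes peptides for class I, is the divergent neighbour of TAP1. Their RefSeq starts lie 488 bases apart and the promoter windows share 13 bases, while in GENCODE the PSMB9 model is longer and overlaps all 8770 bases of the TAP1 model, with 0 exon bases shared. PSMB9 was at 8.08, 8.75 and 8.75 FPKM in Vector and at 5.69, 5.32 and 4.94 FPKM in LOC_OE, without overlap (log2 fold change -0.59, SE 0.0831, limma adjusted p = 0.00887). The ratio of TAP1 to PSMB9 was 2.42 ± 0.12 in Vector and 2.33 ± 0.0884 in LOC_OE, with overlapping values (SD, n = 3, two-sided exact permutation test, p = 0.30, also 0.30 adjusted over 8 ratios). Next to TAP2 lies PSMB8, another immunoproteasome subunit, whose mean was 17.3 FPKM in Vector and 20.1 FPKM in LOC_OE (log2 fold change 0.20, limma adjusted p = 0.169). The ratio of PSMB9 to PSMB8 was 0.446, 0.508 and 0.525 in Vector and 0.266, 0.254 and 0.273 in LOC_OE, with no overlap (exact permutation p = 0.10, 0.13 adjusted over 8 ratios). PSMB9 shares 4.52% of its exon bases with PSMB8 on the other strand, and reads from there cannot be told apart.

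TAPBP (chr6:33299694-33314387, minus strand) was at 29.8, 28.4 and 26.3 FPKM in Vector and at 29.5, 25.4 and 24.4 FPKM in LOC_OE. The groups overlapped, and the log2 fold change of -0.092 did not pass (SE 0.101, 95% interval -0.33 to 0.15, limma adjusted p = 0.549), while it did with the same sum of FPKM (-0.34) and with quantile normalization (-0.30). NLRC5 (chr16:56989485-57083531, plus strand), the class I transactivator, was the lowest member, at 1.67, 1.68 and 1.44 FPKM in Vector and 2.01, 1.81 and 1.95 FPKM in LOC_OE. These values did not overlap and lay higher in LOC_OE, and the log2 fold change of 0.17 did not pass (SE 0.0925, 95% interval -0.05 to 0.39, limma adjusted p = 0.230). With the same sum of FPKM it was 0.0058.

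Most other genes of the class I pathway did not pass the test. Of 13 listed genes 12 were tested, 1 was called lower and 0 higher by limma, with a median log2 fold change of 0.21. PSMB9 was that gene, and its call was lost without Vector replicate 2, Vector replicate 3 or LOC_OE replicate 3. At an unadjusted p-value under 0.05, 6 of the 12 passed at any fold change. Of the peptide editors and chaperones, the tapasin-related gene TAPBPL had a log2 fold change of 0.30 (limma adjusted p = 0.122), calnexin (CANX) 0.28 (0.0569), the disulfide isomerase PDIA3 0.48 (0.0566) and calreticulin (CALR) -0.08 (0.830). The trimming peptidases ERAP1 and ERAP2 had 0.36 (0.234) and 0.15 (0.306). Of the proteasome genes, PSMB10 had -0.08 (0.688), PSME1 0.38 (0.0858) and PSME2 0.23 (0.488). Without LOC_OE replicate 1, 4 of the 12 were higher and 3 lower by the limma adjusted p-value, with no share of all genes given here. Called in that fit were 1 higher and 1 lower, beside 732 higher and 938 lower of all genes. ERAP1 was then called higher (0.59, limma adjusted p = 0.00248), CANX (0.26, 0.0165), PDIA3 (0.34, 0.0161) and PSME1 (0.26, 0.0361) passed under the fold threshold, CALR was at -0.33 (0.00914) and PSME2 at -0.02 (0.850).

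**Figure D3:**
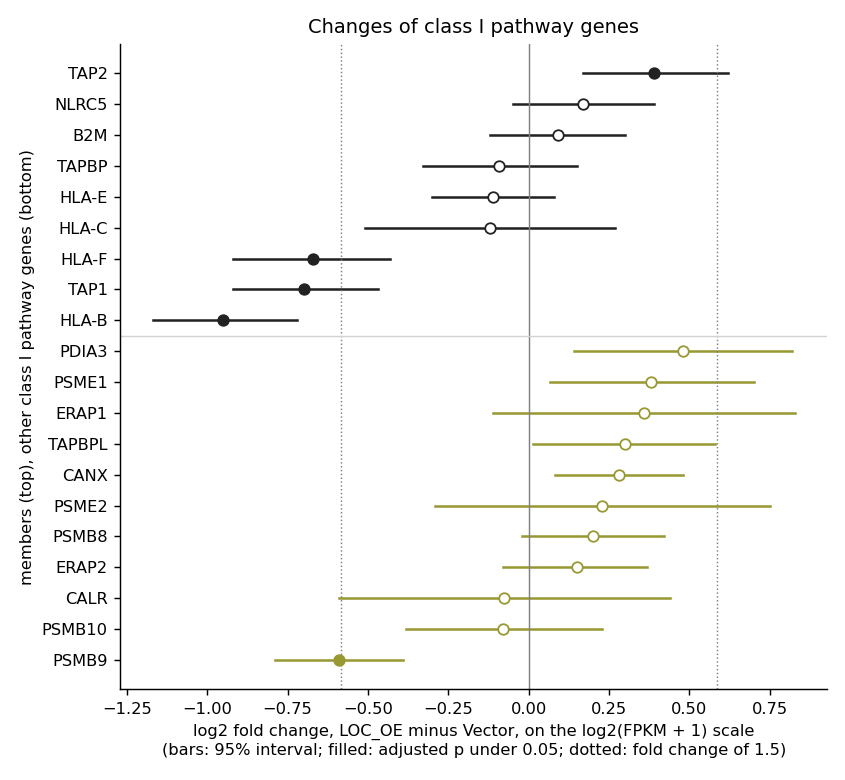
Log2 fold changes (LOC_OE minus Vector, on the log2(FPKM + 1) scale) of the 9 members (black) and of 11 other class I pathway genes (olive) with 95% intervals; filled points have an adjusted p-value under 0.05 and dotted lines mark a fold change of 1.5. HLA-B, TAP1, HLA-F and PSMB9 lie below the lower line and TAP2 between the lines, while the members near 0 include B2M, whose sign turned with 2 of the scalings.

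Among 4 proteasome genes outside the immunoproteasome, PSME3, an activator of the nuclear proteasome, was called higher, from a mean of 28.9 to 61.8 FPKM (log2 fold change 1.04, limma adjusted p = 0.0163), a call lost without any 1 of the Vector libraries. PSMB5, PSMB6 and PSMB7, which the immunoproteasome subunits replace, did not pass. PSMB7 had 153, 145 and 135 FPKM in Vector and 277, 194 and 186 FPKM in LOC_OE, without overlap (log2 fold change 0.57, limma adjusted p = 0.0556, and 0.39 with 0.00856 without LOC_OE replicate 1). PSMB5 and PSMB6 were raised mainly in LOC_OE replicate 1, as PSMB6 had 56.1, 63.7 and 53.7 FPKM in Vector and 127, 53.1 and 54.0 FPKM in LOC_OE.

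Of the 8 genes for proteins that bind the SXY module with NLRC5, ATF1, a CREB family activator, was called higher (mean 9.75 against 18.7 FPKM, log2 fold change 0.86, limma adjusted p = 0.0112), and 0 were called lower. NFYB (0.48, limma adjusted p = 0.0182) and NFYC (0.53, limma adjusted p = 0.0187), both subunits of the Y box factor NF-Y, rose under the fold threshold. ATF1, NFYB and NFYC all lost the adjusted p-value without any 1 of the Vector libraries. RFX5, RFXAP, RFXANK, NFYA and CREB1 did not pass, and without LOC_OE replicate 1 NFYA did (0.17, limma adjusted p = 0.0488).

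Of 14 interferon receptor and signalling genes, 13 were tested and limma called 0 in either direction, and limma voom on the recovered reads called 1 lower. Past the unadjusted p-value and the fold together were 0, beside 2046 of all genes. By the unadjusted p-value alone 7 passed, a count with no share of all genes given here. By the adjusted p-value alone IFNAR1 and SOCS3 were higher and IFNGR1, TYK2 and IRF2 lower. All 5 lost it without any 1 of the Vector libraries and without LOC_OE replicate 3. Without LOC_OE replicate 1 the adjusted p-value was passed by 3 higher and 4 lower genes, with no share of all genes given here. Called in that fit were 0, beside 732 higher and 938 lower of all genes. IRF1, which acts at class I promoters, had a log2 fold change of -0.28 (limma adjusted p = 0.227, and -0.43 with 0.0155 without LOC_OE replicate 1).

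On the log2(FPKM + 1) scale, the largest change among the tested genes of these lists was that of NFKB2, the p100/p52 subunit of NF-kB. It was at 46.8, 47.6 and 43.7 FPKM in Vector and at 20.1, 21 and 20.9 FPKM in LOC_OE (log2 fold change -1.12, SE 0.0757, limma adjusted p = 0.00257), and its call held without each library in turn. RELB, its partner in the alternative NF-kB pathway, was at 12.4, 13.4 and 11.2 FPKM and at 8.73, 6.37 and 5.20 FPKM (-0.80, SE 0.172, limma adjusted p = 0.0250). The RELB call was lost without any 1 of the Vector libraries and without LOC_OE replicate 2. These were the 2 of 5 subunits called, both lower, while RELA (-0.22), NFKB1 (0.48) and REL (-0.01) did not pass. Without LOC_OE replicate 1, RELA was at -0.33 (limma adjusted p = 0.00396) and NFKB1 at 0.30 (limma adjusted p = 0.0237). This made 3 lower and 1 higher by the adjusted p-value, with no share of all genes given here. Whether they bear on HLA-B or TAP1 was not tested.

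No gene of the 12 class II genes passed the filter, 6 were at 0 in all libraries, and their summed level was at most 1.06 FPKM in Vector and 0.846 FPKM in LOC_OE. Of 12 ligands of natural killer and T cell receptors 10 were tested, 2 were called lower and 0 higher, where 5.58% and 4.63% of all genes were. Their median log2 fold change was -0.24, beside 0.019 over all genes. The lower genes were RAET1G, an NKG2D ligand (mean 1.41 against 0.401 FPKM, -0.78, limma adjusted p = 0.0131), and PDCD1LG2, a ligand of PD-1 (mean 9.0 against 4.95 FPKM, -0.76, limma adjusted p = 0.0117). RAET1G passed the filter only through Vector and had 10, 11 and 7 reads in LOC_OE, so it could only be called lower. The calls of RAET1G and PDCD1LG2 were lost without any 1 of the Vector libraries. Without LOC_OE replicate 1 the NKG2D ligand MICA was called lower as well (-0.70, limma adjusted p = 0.00139). This made 3 of the 10 called lower and 0 higher, beside 938 lower and 732 higher of all genes. By the limma adjusted p-value alone, 5 of the 10 were then lower and 1 higher, with no share of all genes given here.

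Of the members, 7 lie on chromosome 6, between HLA-F and TAPBP, over 3.59 Mb. Of 304 other genes in this span 116 were tested, 3 were called higher and 7 lower, where 4.63% and 5.58% of all genes were, with a median log2 fold change of -0.072, beside 0.019 over all genes. The same sum of FPKM gave 1 higher and 25 lower in the span, where it called 261 higher and 1786 lower of all genes. With limma voom 3 were higher and 22 lower of 115 tested in the span, beside 1062 higher and 1682 lower over all genes. Besides PSMB9, the lower genes included the pseudogenes MICE and HCG4B, whose lowest coordinates lie 0.019 and 0.203 Mb from that of HLA-F. These 2 fell from means of 4.03 to 1.43 FPKM and of 4.17 to 1.63 FPKM (log2 fold changes -1.08 and -1.03, limma adjusted p = 0.0203 and 0.0424). Their reads, as few as 13 and 9 in a LOC_OE library, may be shared with genes of like sequence or with overlapping genes. MICE lies within the bounds of HLA-F-AS1, and HCG4B overlaps HLA-K on the other strand. The early response gene IER3 (1.07, limma adjusted p = 0.00799) and the RNA-binding LSm protein gene LSM2 (0.77, limma adjusted p = 0.0327) were higher. The counts in the span changed when 1 library was left out, and so did those over all genes. Without Vector replicate 2 the span had 0 calls, beside 371 over all genes. It had 2 higher and 1 lower without Vector replicate 1 (672 calls over all genes). Without Vector replicate 3 there were 1 higher and 0 lower (474 over all genes). The span had 2 higher and 4 lower without LOC_OE replicate 2 (1303 over all genes), and 3 and 4 without LOC_OE replicate 3 (1564). Without LOC_OE replicate 1 it had 3 higher and 15 lower, beside 732 higher and 938 lower over all genes. In the plot along the span, TAP1 and TAP2 stand on opposite sides of 0 at 3.1 Mb.

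**Figure D4:**
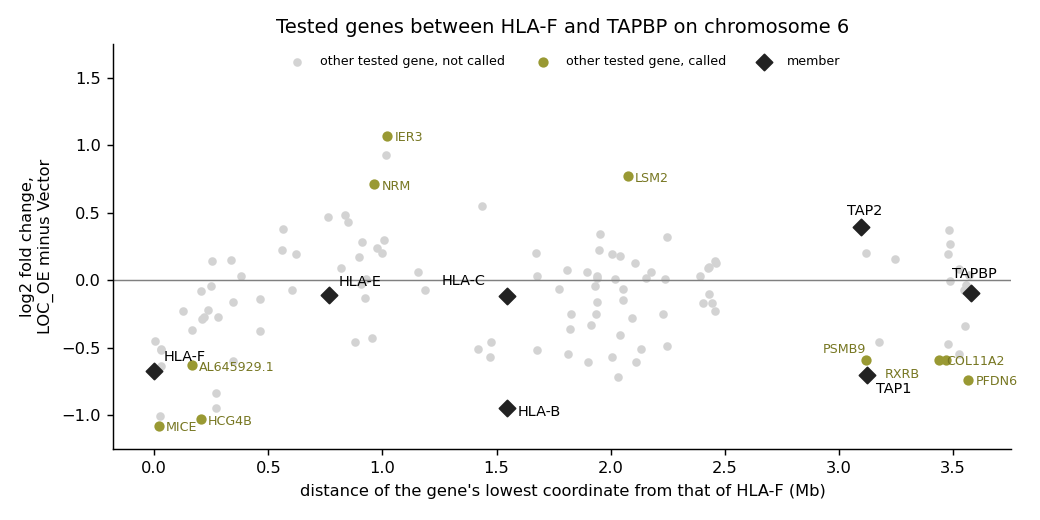
Log2 fold change (LOC_OE minus Vector) of each tested gene between HLA-F and TAPBP against the distance in Mb of its lowest coordinate from that of HLA-F. The 7 members on chromosome 6 are shown as diamonds, 10 other called genes in olive and the rest in grey. By their lowest coordinates, which on the minus strand are their ends and not their starts, HLA-B and HLA-C lie together at 1.5 Mb. Their log2 fold changes were -0.95 and -0.12.

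Genes with the pattern most like a called member were found over the 6 libraries by the root mean square difference of log2(FPKM + 1), centred per gene, among 13196 other genes with a mean of at least 1 FPKM. For HLA-B these were TPPP (0.042), SECTM1 (0.061) and DTX4 (0.064), against a median of 0.539 over all genes compared. Nearest to HLA-F were PLCD1 (0.039), STK32C (0.052) and WHRN (0.060), and nearest to TAP1 were MYH14 (0.024), ARFGAP1 (0.029) and CIC (0.037). None of these 9 genes lies on chromosome 6, a count given without the share of all genes compared that lie there. As the nearest of 13196, they lie below the median by how they were picked. Between members, TAP1 and HLA-F differed by 0.098, TAP1 and HLA-B by 0.179 and HLA-B and HLA-C by 0.461.

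The plot of all alternatives shows how far each member depends on the processing. HLA-B, HLA-F and TAP1 passed the adjusted p-value in all 10 alternatives that kept every library, with log2 fold changes of -1.20 to -0.94, -0.88 to -0.60 and -0.94 to -0.70. Of these alternatives, median-of-ratios rescaling was no further test, since the deposited FPKM were already on that scale. TAP2 passed in 7 of 10 (0.16 to 0.44), HLA-C in 3 of 10 (-0.49 to -0.12), TAPBP in 2 of 10, HLA-E in 1 of 10, and B2M and NLRC5 in none of the 10.

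**Figure D5:**
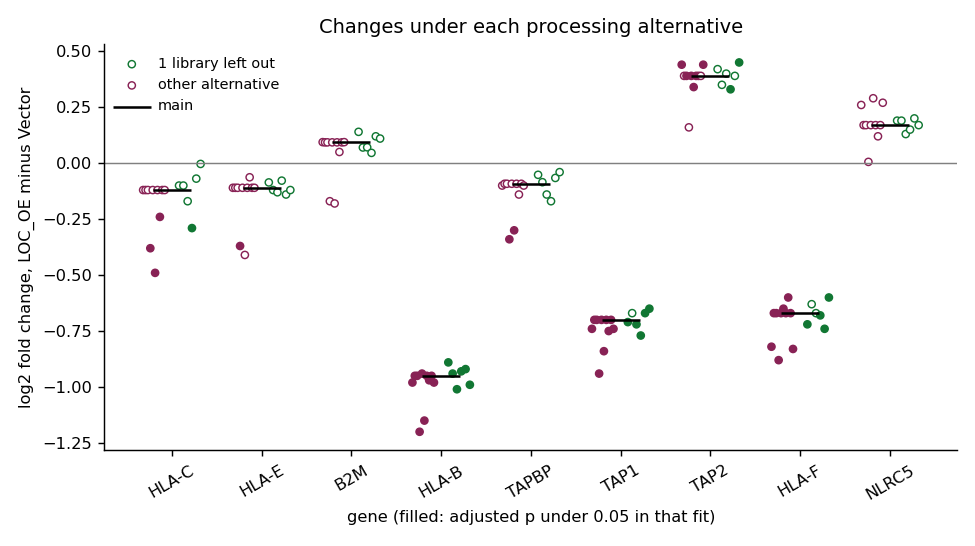
Log2 fold change (LOC_OE minus Vector) of each member in the reported fit (black bars), in 10 alternatives with all libraries (purple) and in the 6 fits that left out 1 library (green); filled points have an adjusted p-value under 0.05. HLA-B stayed between -1.20 and -0.89, and B2M lay on both sides of 0.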

How the data were processed

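RNA of RKO cells was analysed in 6 libraries, 3 Vector and 3 LOC_OE, grouped by their labels. The series' design text calls the samples biological replicates, and p-values measure the spread between these libraries only. Per the study's methods, total RNA was extracted with Trizol, libraries were made with a NEBNext Ultra kit and paired ends of 150 bases were read on a NovaSeq. The submitters' processing notes name HISAT2 2.0.4, StringTie 1.3.0 and hg38, with no role given, and the strand setting is not given in the sources used here. The authors deposited FPKM, the fragments on a gene per length and per library size, for 58735 genes, all found in GENCODE version 29. Columns of values left unused: 0.

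Times merged exon length, the FPKM were whole reads (within 0.1 read) for 100% of values. The library size behind them equalled the median-of-ratios size factor scaled by the geometric mean of the totals. Reads carry no molecular identifiers.

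log2(FPKM + 1) was fitted with limma 3.58.1 in R 4.3.3 with the variance trend on. The 16061 genes tested reached 0.5 FPKM in 3 or more libraries. Fold changes are on this scale, which understates those of low genes. Adjusted p-values are Benjamini-Hochberg over all genes tested. Ratios used exact permutation tests in scipy 1.17.1. They were not in the analysis plan and reuse the values of genes already fitted singly. The steps were tested on simulated data.

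Named were all members, every tested other class I pathway gene, up to 4 called genes with the largest change per list and span, and the 3 nearest genes by pattern. Other list genes, among them IRF1 and those that did not pass, were named after their values were seen. Results of 2 list genes are not reported here. The members and lists were chosen with earlier results of these data known. The NF-kB consensus and limma voom on the recovered reads (genes with at least 10 reads in at least 3 libraries) were added after seeing the data.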

Additional observations from a re-analysis of the deposited data

How the results depend on the processing

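The members called, 3 in the reported fit, stayed at 3 under a pseudocount of 0.1, both other filters, all 3 scalings, no variance trend, array weights, unadjusted p-values and limma voom, and were 4 by the adjusted p-value alone, 0 at a fold change of at least 2 and 1 (without Vector replicate 2) to 3 when 1 library was left out. All genes called numbered 1639, against 2744 with limma voom, 363 at a fold change of at least 2, 3277 by the adjusted p-value alone, and 371 (without Vector replicate 2) to 1670 when 1 library was left out. B2M turned from 0.093 to -0.17 with the same sum of FPKM and to -0.18 with quantile normalization.

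With the replicate block the genes called were 1435 and the members called 3. The limma adjusted p of TAP2 was 0.0597 there. Deviations from the group means of same-numbered libraries had correlations of 0.111, -0.034 and 0.116 across genes, so the numbers were not taken as pairs, and not every library deviated most like that of its own number.

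The cause of these changes was not tested. With 3 libraries a group, exact tests of a ratio cannot go below p = 0.10. HLA-F rested on as few as 174 reads.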
